A study of Arabidopsis thaliana with 6 samples.

Results

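The 5 genes described here encode proteins that protect the photosynthetic membrane of Arabidopsis thaliana from excess light. They are ELIP1 (AT3G22840), ELIP2 (AT4G14690), OHP1 (AT5G02120), OHP2 (AT1G34000) and PSBS (AT1G44575). They were taken by locus from the 33602 genes of each deposited file, and 5 of 5 were found there. The rule names loci and uses no measured value, but the genes were chosen with earlier results of these data known. RNA was sequenced from whole seedlings of the Col-0 accession (wild type) and of the toc1-21 prr5-1 double mutant, in which both of the clock genes TOC1 and PRR5 are mutated. Each genotype had 3 libraries, which the series calls biological replicates. The sources used here do not say how they were kept separate, so p-values reflect only how far these libraries spread, which may be technical. Means below carry the SD over n = 3 libraries after the ± sign. All seedlings were 10 days old, grew in long days at 22 °C (medium: MS, 3% sucrose) and were taken at ZT15, 15 h after lights on. The labels name no other allele or treatment.

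PSBS senses the acidification of the thylakoid lumen in strong light and switches on the rapid part of non-photochemical quenching, by which the photosystem II antenna gives off absorbed energy as heat. ELIP1 and ELIP2, the early light-induced proteins, are relatives of the light-harvesting antenna that are made when dark-grown seedlings green and under high light, UV-B and cold. OHP1 and OHP2 are one-helix proteins of the same superfamily. They bind pigments as a pair and work with HCF244 in the synthesis of the D1 protein of the photosystem II reaction centre. In the deposited annotation OHP1 carries the term circadian rhythm, and ELIP1 and ELIP2 carry the term photoprotection.

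The position of each gene was read from the RefSeq annotation of TAIR10.1. The files name TAIR10 as their build and hold no coordinates, so none were converted. PSBS lies on chromosome 1 at 16870221 to 16873427 (plus strand) with 5 exons in the transcript with the longest coding part, and OHP2 on chromosome 1 at 12357910 to 12358966 (minus strand, 2 exons). OHP1 lies on chromosome 5 at 419091 to 419773 (plus strand, 3 exons). ELIP1 lies on chromosome 3 at 8084405 to 8085669 (minus strand, 3 exons) and ELIP2 on chromosome 4 at 8418242 to 8419325 (plus strand, 3 exons). PSBS, ELIP1 and ELIP2 overlap no other annotated gene. The end of OHP1 overlaps AT5G02130 on the opposite strand by 116 bases, and that of OHP2 overlaps AT1G33990 on the opposite strand by 122 bases. OHP2 also overlaps the opposite-strand locus AT1G06717 by 334 bases. The sources used here do not state whether counting used strand, so reads of these overlapping genes cannot be told apart. AT5G02130 stood at 8.32 ± 1.39 in Col-0 against 8.61 ± 0.859 RPKM in the mutant, and AT1G33990 at 44.2 ± 1.28 and 40.3 ± 2.72 RPKM. Neither of these 2 neighbours passed the test (limma adjusted p = 0.884 and 0.419), and both were below the gene they overlap. AT1G06717, which has the longest overlap, is not among the deposited genes and has no value here.

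ELIP1 and ELIP2 are close relatives, so their sequences decide how well reads can be assigned to each. Their coding sequences are identical at 445 of 564 aligned bases (78.9%). The longest run shared without a difference has 26 bases. That run is shown with 10 coding bases on either side, 5′ to 3′, with bases that differ between the genes in capitals (ELIP1 coding bases 255 to 300, ELIP2 coding bases 249 to 294, RefSeq TAIR10.1).
ELIP1: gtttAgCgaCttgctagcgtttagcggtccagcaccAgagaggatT
ELIP2: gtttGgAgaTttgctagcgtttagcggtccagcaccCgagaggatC

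The sequences upstream of PSBS and OHP1 are shown because these 2 genes rose in the mutant. That of ELIP1 is shown beside them because it too holds the G-box found in OHP1. Any link between motifs and changes in level was not tested. Each is the 250 bases before the annotated gene start (RefSeq, TAIR10.1), 5′ to 3′ on the gene's strand. The windows are chr1:16869971-16870220 (plus strand) for PSBS, chr5:418841-419090 (plus strand) for OHP1 and chr3:8085670-8085919 (minus strand) for ELIP1. Capitals mark the motifs searched on both strands. One was the G-box CACGTG, bound by bHLH and bZIP factors, and another its core ACGT. The evening element was searched by its core AATATCT and the light motif SORLIP1 by its core GCCAC.
PSBS: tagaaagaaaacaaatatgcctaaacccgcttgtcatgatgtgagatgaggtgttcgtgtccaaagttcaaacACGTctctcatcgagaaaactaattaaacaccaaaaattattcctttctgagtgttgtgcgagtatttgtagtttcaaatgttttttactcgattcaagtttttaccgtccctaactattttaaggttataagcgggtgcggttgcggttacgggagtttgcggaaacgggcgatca
OHP1: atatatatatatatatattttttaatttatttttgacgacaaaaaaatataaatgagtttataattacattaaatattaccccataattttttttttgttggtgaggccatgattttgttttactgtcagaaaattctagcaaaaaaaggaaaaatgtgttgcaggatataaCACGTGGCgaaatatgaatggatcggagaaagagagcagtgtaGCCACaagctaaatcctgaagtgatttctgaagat
ELIP1: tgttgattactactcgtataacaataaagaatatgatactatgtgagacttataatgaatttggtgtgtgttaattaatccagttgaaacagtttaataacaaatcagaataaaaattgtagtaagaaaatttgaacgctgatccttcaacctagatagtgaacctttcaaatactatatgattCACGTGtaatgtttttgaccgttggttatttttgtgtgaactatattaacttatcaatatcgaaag
CACGTG was found once in OHP1, 78 to 73 bases before the start, and once in ELIP1, 66 to 61 bases before the start. Of 27443 promoters of this length, 6.49% hold it. ACGT was found within both of these G-boxes and once in PSBS, 177 to 174 bases before the start, and 44.1% of promoters hold it. GCCAC was found at 2 places in OHP1, one of them overlapping the G-box on the other strand, and in none of the other 4 windows, against 15.4% of all promoters. AATATCT, held by 10.0% of promoters, was found in none of the 5 windows, and those of OHP2 and ELIP2 held none of the 4 motifs. These matches are letters in a window and do not show binding.

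The libraries rest on 14617043 to 26792712 reads, recovered from the steps between low RPKM values (RPKM scales reads by gene length and library depth). TOC1 fell from 33.6 ± 1.49 to 16.8 ± 1.91 RPKM and PRR5 from 2.94 ± 0.0664 to 1.12 ± 0.216 RPKM, with limma adjusted p = 0.000187 and 0.00371, so the mutated genes were lower in the libraries labelled as mutant and still detected in each. The test was limma on log2(RPKM + 1) over the 19710 genes with an RPKM of 1 or more in 3 or more libraries, with Benjamini-Hochberg adjustment and a threshold of 0.05. It called 10.6% of tested genes in either direction, 3.9% as higher and 6.65% as lower in the mutant. Markers of green shoot tissue had a summed level of 13534 to 14903 in Col-0 against 14327 to 15726 RPKM in the mutant, and of 5 such markers 1 was higher (RCA), 1 lower (SBPASE) and 3 did not pass. The call of RCA was lost without replicate 1 of Col-0 (limma adjusted p = 0.118) and without replicate 1 (0.149) or 2 (0.146) of the mutant. Of 4 seed storage and oil body markers 3 were lower (CRA1, CRC and OLEO1), with summed levels of 512 to 627 in Col-0 against 270.3 to 330.2 RPKM in the mutant. By limma, 0 of 5 root and 0 of 3 guard cell markers were called, with 1 in each list at an unadjusted p under 0.05 and 1 in each called by limma-voom. The summed root level was 64.9 to 94.3 in Col-0 against 88.8 to 94.4 RPKM in the mutant, and the summed guard cell level 23.5 to 28.2 and 19.8 to 25.0 RPKM. The part of these markers in the results was not tested. In whole seedlings, fewer cells of a type and less RNA per cell cannot be told apart.

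PSBS and OHP1 were higher in the double mutant, 2 of the 4 genes that could be tested, where 10.6% of all tested genes were called in either direction and 3.9% as higher. PSBS rose by 57.9% and OHP1 by 27.3%, taken as ratios of mean RPKM. OHP2 had a mean 17.6% higher in the mutant and ELIP1 a mean 11.3% higher, and neither passed the test. ELIP2, the lowest of the 5 genes, was below the filter and was not tested with the others. Levels per length were ordered PSBS, OHP2, OHP1, ELIP1, ELIP2 in 5 of 6 libraries, and in mutant replicate 2 the 2 ELIP genes stood in the opposite order.

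PSBS, the quenching sensor, stood at 463, 605 and 455 RPKM in Col-0 (replicates 1, 2 and 3 in that order) and at 848, 795 and 761 RPKM in the mutant (same order). All mutant libraries were above all Col-0 libraries, and Col-0 replicate 2 was the highest of its genotype. The means were 508 ± 84.5 in Col-0 against 801 ± 44.1 RPKM in the mutant. The log2 fold change was 0.67 (SE 0.12, 95% interval 0.39 to 0.95, limma adjusted p = 0.00685). In Col-0 its mean was above that of 99.2% of tested genes, and 10314 to 32493 reads lay behind each value, so counting error was small beside the spread between libraries. Leaving out any 1 of the 6 libraries kept the call (log2 fold change 0.60 to 0.80, limma adjusted p = 0.000645 to 0.0421), with the largest value when Col-0 replicate 2 was left out.

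OHP1 stood at 91.2, 101.0 and 82.6 RPKM in Col-0 (replicates 1, 2 and 3 in that order) and at 124, 114 and 111 RPKM in the mutant (same order). The genotypes did not overlap, as for PSBS, and the gap between them was 10.2 RPKM. Of the 5 genes these 2 had groups that did not overlap, against 27.0% of all tested genes in either direction. OHP1 rose from 91.6 ± 9.25 to 117 ± 6.59 RPKM, or 0.35 on the log2 scale (SE 0.09, 95% interval 0.14 to 0.56, limma adjusted p = 0.0430). This call lay near the threshold. It was lost without Col-0 replicate 1 (limma adjusted p = 0.132), Col-0 replicate 3 (0.0902) or mutant replicates 1 (0.181), 2 (0.117) or 3 (0.0723), and kept without Col-0 replicate 2 (0.0163). It was also lost with no filter (0.0616) and without the mean-variance trend (0.0910), while the log2 fold change stayed between 0.28 and 0.42 in every fit run.

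OHP2, the partner of OHP1, stood at 141, 168 and 140.0 RPKM in Col-0 (replicates 1, 2 and 3 in that order) and at 190.0, 163 and 175 RPKM in the mutant (same order). Here the genotypes overlapped, since Col-0 replicate 2 was above mutant replicate 2. The means were 149 ± 15.7 and 176 ± 13.7 RPKM, a log2 fold change of 0.24 (SE 0.10, 95% interval 0.01 to 0.46) that did not pass (limma adjusted p = 0.197). The interval reaches from almost no difference to beyond the 0.35 of OHP1, so these libraries do not show that OHP2 stayed the same. Without Col-0 replicate 2 its limma adjusted p was 0.0537, the lowest of the 6 fits without 1 library. The other such fits gave 0.218 to 0.518.

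**Figure D1:**
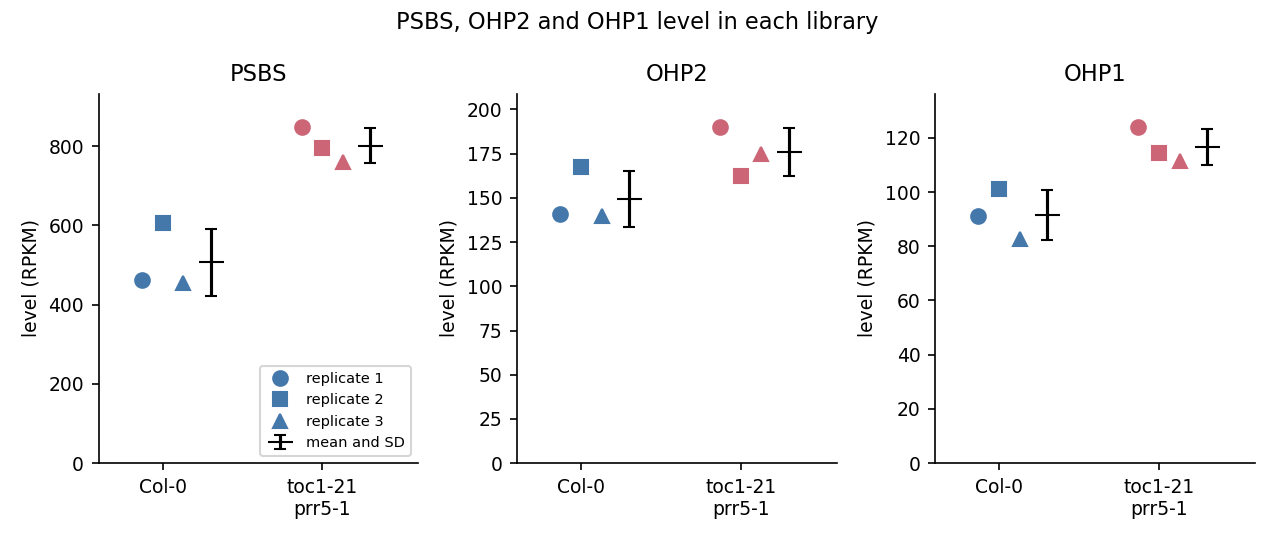
Level of PSBS, OHP2 and OHP1 in RPKM (linear axes from 0) in each library, with symbols for replicate numbers and the mean with its SD in black. The mutant libraries lie above all Col-0 libraries for PSBS and OHP1, and for OHP2 the Col-0 library at 168 RPKM lies above the mutant library at 163 RPKM.

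The ratio of the 2 one-helix genes was also taken in each library. OHP2 was 1.54, 1.66 and 1.70 times OHP1 in Col-0 (replicates 1, 2 and 3) and 1.53, 1.42 and 1.57 times OHP1 in the mutant (same order), on the RPKM scale, which corrects for gene length. Of the Col-0 ratios 2 lay above all mutant ratios, and that of replicate 1 lay among them. The mean ratio was 1.63 ± 0.0788 in Col-0 and 1.51 ± 0.0782 in the mutant. The difference of log2 ratios, mutant minus Col-0, was -0.11 (two-sided exact permutation test p = 0.2, adjusted p = 0.4 over 2 ratios), where 3 against 3 libraries cannot go below 0.1, so the test could not have passed and does not show that the ratio was the same. Without Col-0 replicate 1 the exact permutation p was 0.1, the smallest possible there too.

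ELIP1 stood at 1.93, 4.12 and 1.38 RPKM in Col-0 (replicates 1, 2 and 3 in that order) and at 3.87, 1.22 and 3.17 RPKM in the mutant (same order). Both the highest and the second lowest value were in Col-0, and the genotypes overlapped over nearly their whole range. The means were 2.48 ± 1.45 and 2.76 ± 1.37 RPKM, a log2 fold change of 0.11 (SE 0.33, 95% interval -0.64 to 0.86, limma adjusted p = 0.899). The sign of the difference turned when Col-0 replicate 3 was left out (-0.12), and likewise for replicate 1 (-0.11) or 3 (-0.00050) of the mutant. ELIP1 was thus at the low end of expression at ZT15, with a Col-0 mean above that of 11.3% of tested genes, and a change of the size seen for PSBS lies within its interval.

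The spread of ELIP1 was larger than counting error. The 25, 59 and 27 reads of Col-0 replicates 1 to 3 gave exact Poisson 95% intervals of 1.25 to 2.86, 3.14 to 5.31 and 0.908 to 2.004 RPKM, so that of replicate 2 met neither of the others. In the mutant, 71, 29 and 56 reads gave intervals of 3.02 to 4.89, 0.820 to 1.76 and 2.40 to 4.12 RPKM, and that of replicate 2 lay below both others. These intervals cover counting error only. The library with an outlying ELIP1 value was thus high in Col-0 and low in the mutant.

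ELIP2 rested on few reads, 4, 11 and 5 for the Col-0 replicates and 19, 27 and 11 for those of the mutant, in order. These reads gave 0.340, 0.842 and 0.280 RPKM in Col-0 and 1.14, 1.25 and 0.684 RPKM in the mutant. Mutant replicate 3 was below Col-0 replicate 2, so the genotypes overlapped, and their 2 intervals, 0.341 to 1.22 and 0.421 to 1.51 RPKM, shared most of their range. The means were 0.487 ± 0.309 and 1.02 ± 0.300 RPKM, a 2.10-fold ratio of means. With no filter on low values, the log2 fold change was 0.45 (limma adjusted p = 0.200), a fit that called 7.61% of its 25139 genes. With limma-voom on the recovered reads of the same genes, chosen after the data were seen, it was 1.16 (adjusted p = 0.209), where 9.53% were called. Neither fit passed the threshold, which does not show that ELIP2 was the same in both genotypes.

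**Figure D2:**
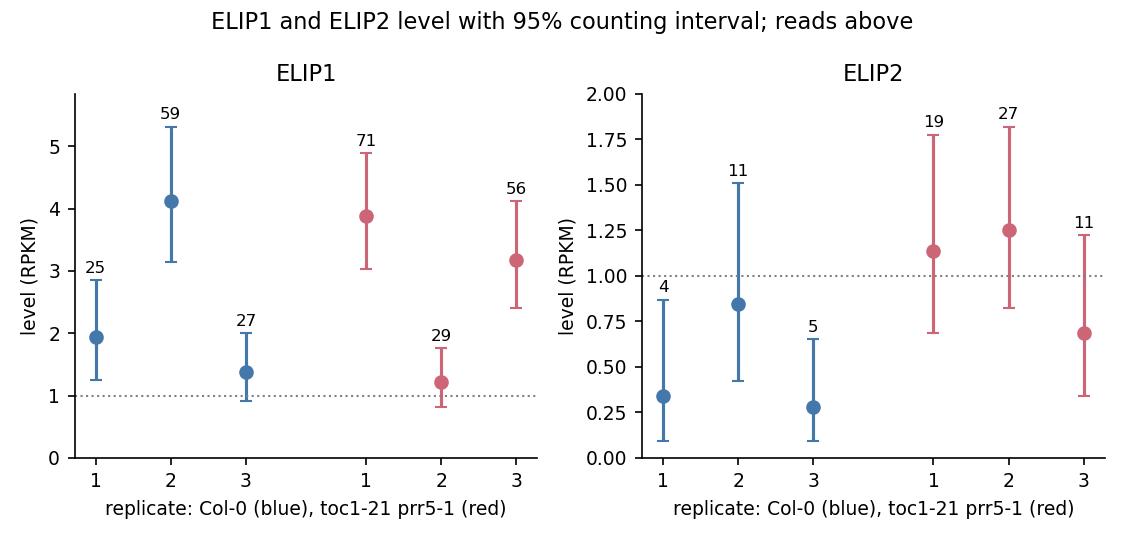
Level of ELIP1 and ELIP2 in RPKM (linear axes from 0) in each library, with exact Poisson 95% intervals as bars, read numbers above them and a dotted line at 1 RPKM, the limit of the filter. ELIP1 varies from 1.22 to 4.12 RPKM across both genotypes, and ELIP2 is above 1 RPKM in 2 mutant libraries and in no Col-0 library.

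Within a library the ELIP genes did not keep a fixed ratio. ELIP2 was 0.175, 0.204 and 0.203 times ELIP1 in Col-0 replicates 1 to 3, a narrow range over a wide range of ELIP1 levels. These ratios rest on 4, 11 and 5 ELIP2 reads, too few to show that the ratio was stable in Col-0. In mutant replicates 1 to 3 ELIP2 was 0.294, 1.02 and 0.215 times ELIP1. Mutant replicate 2, which had the lowest ELIP1 level and the highest ELIP2 level of all 6 libraries, set this range. The difference of log2 ratios with 1 RPKM added to each gene, mutant minus Col-0, was 0.34 (two-sided exact permutation test p = 0.7, adjusted p = 0.7 over 2 ratios), and -0.08 without mutant replicate 2. It was 0.87 with 0.1 RPKM added and 0.08 with 5 RPKM added, so its size rests on that choice.

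The 5 genes shared a ranking of libraries in Col-0. Col-0 replicate 2 was the highest Col-0 library for 5 of 5 genes, while it was so for 30.9% of all tested genes. In the mutant, replicate 1 was the highest for 4 of 5 genes, all but ELIP2, against 30.5% of tested genes. Col-0 replicate 2 was 130.8% of replicate 1 for PSBS, 119.0% for OHP2 and 110.8% for OHP1. For ELIP1 it was 213.0% and for ELIP2 248.1% of replicate 1, so the measured excess was larger in the ELIP genes, on far fewer reads. For ELIP2 the counting intervals of these 2 libraries overlapped (0.0925 to 0.869 RPKM in replicate 1 and 0.421 to 1.51 RPKM in replicate 2). As the rankings are within 1 set of libraries, they describe these libraries.

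The genes around each locus were called at unequal rates. Among the 50 tested genes on either side, 15 of 100 were called around ELIP1 on chromosome 3, 7 around OHP1, 5 around PSBS, 4 around OHP2 and 1 around ELIP2, against 10.6% of all tested genes. PSBS and OHP1 thus lay among neighbours with fewer calls than the whole set of tested genes. The sources used here do not state the accession in which either mutant allele was isolated, or any crossing back to Col-0. Neighbour counts, given below for some other genes too, are therefore a description, and the part of linked sequence from another accession in any call was not tested.

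By the distance between log2(RPKM + 1) profiles over the 6 libraries, each centred on its own mean, the 3 tested genes most like PSBS were AT2G36145, CaS and CYP71B2, at distances of 0.03, 0.07 and 0.13. CaS, a calcium-sensing protein of the thylakoid membrane, stood at 184 ± 25.2 in Col-0 against 289 ± 13.5 RPKM in the mutant, a log2 fold change of 0.66 beside the 0.67 of PSBS. AT2G36145 went from 48.7 ± 8.49 to 77.0 ± 3.21 RPKM, and CYP71B2 from 8.04 ± 1.34 to 14.3 ± 1.05 RPKM. The distance takes in the difference between the genotypes, so like fold changes follow from how these genes were picked. The genes most like OHP1 were PAM1, PGRL1B and AT2G18330, at 0.06, 0.11 and 0.13. PGRL1B, which works in cyclic electron flow around photosystem I, stood at 20.1 ± 1.73 and 25.4 ± 0.817 RPKM and did not pass (limma adjusted p = 0.0519). Neither did PAM1 (0.0775) nor AT2G18330 (0.152).

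Genes around the 5 in the same processes were drawn from 7 lists with 51 genes, of which 50 were tested. Of these, 7 rose, 8 fell and 35 missed the threshold, with a median log2 fold change of -0.06 beside -0.01 for all tested genes. That is 15 of 50 called, where 10.6% of all tested genes were called. The lists were chosen with earlier results of these data known, so this share is a description.

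In non-photochemical quenching and the xanthophyll cycle, which PSBS works with, 3 of 12 genes rose, 1 fell and 8 missed the threshold, and the median log2 fold change was -0.07. ZEP, which turns zeaxanthin back into violaxanthin and so ends its part in quenching, rose from 15.4 ± 0.911 to 49.9 ± 5.38 RPKM, which is 1.63 on the log2 scale (limma adjusted p = 5.75e-06). VDE, which makes zeaxanthin in the opposite reaction, stood at 42.8 ± 2.92 and 34.4 ± 3.20 RPKM and did not pass (limma adjusted p = 0.0701). AT4G31530, a gene of the chloroplast stroma in the deposited annotation, fell from 57.2 ± 4.30 to 14.2 ± 1.53 RPKM. It lies where 17 of 100 neighbours were called. The 2 others that rose are named after their values were seen. PGR5, of cyclic electron flow, rose from 106 ± 7.90 to 190.3 ± 7.90 RPKM, and KEA3, a potassium and proton exchanger, from 9.94 ± 1.00 to 18.7 ± 2.16 RPKM. PGRL1A, which works with PGR5, stood at 200.4 ± 14.3 and 214 ± 19.4 RPKM and did not pass (limma adjusted p = 0.669). Of the 12 genes limma-voom called 6, and 6 had an unadjusted p under 0.05 by limma, against the 4 called here.

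Among other LHC-like genes, relatives of the ELIP and OHP genes, 0 of 6 rose, 2 fell and 4 missed the threshold (3 had an unadjusted p under 0.05, and limma-voom called 2 in either direction), with a median log2 fold change of -0.18. LIL3:1, which holds geranylgeranyl reductase at the membrane for chlorophyll synthesis, fell from 154 ± 20.8 to 55.7 ± 2.72 RPKM. Its close relative LIL3:2 stood at 322 ± 31.5 and 326 ± 18.1 RPKM (limma adjusted p = 0.936). PSB33, of photosystem II, fell from 242 ± 20.4 to 163 ± 10.97 RPKM. The stress-enhanced proteins SEP1 (log2 fold change -0.03) and SEP2 (-0.08) did not pass. The 2 genes that fell lie where 19 (LIL3:1) and 21 (PSB33) of 100 neighbours were called.

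Of 6 OHP partners and assembly factors of photosystem II, 1 was higher and 5 did not pass, with a median log2 fold change of -0.03. By limma 2 had an unadjusted p under 0.05, and limma-voom called 1 in either direction. One of these 2 was CHLG, at 94.9 ± 7.65 and 114 ± 3.14 RPKM, which did not pass (limma adjusted p = 0.0839). The gene that rose was HCF244, which forms a complex with OHP1 and OHP2. It stood at 32.1, 36.7 and 31.7 RPKM in Col-0 (replicates 1, 2 and 3 in that order) and at 58.6, 47.9 and 48.7 RPKM in the mutant (same order). All mutant libraries were above all Col-0 libraries. The means differed by 0.61 on the log2 scale (SE 0.10, limma adjusted p = 0.00414), beside 0.35 for OHP1 and 0.24 for OHP2. Whether these changes differ from each other was not tested.

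Among proteases that repair photosystem II, 1 of 8 rose, 2 fell and 5 missed the threshold, with a median log2 fold change of 0.02. The lumenal proteases DEG5 and DEG1 fell, from 57.9 ± 4.23 to 36.5 ± 3.34 RPKM and from 29.1 ± 2.96 to 19.7 ± 0.452 RPKM, and 21 and 39 of their 100 neighbours were called. FTSH8, of the thylakoid FtsH protease, rose from 42.7 ± 3.33 to 54.4 ± 3.70 RPKM (limma adjusted p = 0.0381). It is named after its values were seen, and its call held in 1 of 6 fits without 1 library, that without Col-0 replicate 3 (the others gave adjusted p from 0.0557 to 0.167). By limma 0 of 4 thylakoid kinases and phosphatases were called, with 1 at an unadjusted p under 0.05 and 0 by limma-voom.

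Of 8 genes listed for light and UV-B signalling, 1 was higher, 1 lower and 6 did not pass, with a median log2 fold change of 0.13. By limma 4 had an unadjusted p under 0.05, and limma-voom called 2 in either direction. Not all of these 8 are known here to act on the ELIP genes. HY5, the bZIP factor that induces ELIP genes in light, fell from 22.8 ± 4.99 to 13.04 ± 1.57 RPKM (limma adjusted p = 0.0132). Leaving out Col-0 replicate 1 (0.0605) or mutant replicate 3 (0.0586) ended that call. HYH, its closest relative, stood at 6.69 ± 1.95 and 8.73 ± 1.77 RPKM and did not pass (limma adjusted p = 0.339). SIG5, a plastid sigma factor that answers to light, rose from 1.16 ± 0.291 to 4.26 ± 0.521 RPKM (limma adjusted p = 0.000584).

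Genes that UV-B or high light induce along with the ELIP genes went both ways, with 1 higher, 2 lower and 3 not passing among 6 tested of 7, and a median log2 fold change of 0.06. By limma 4 had an unadjusted p under 0.05, and limma-voom called 4 in either direction. CHS, the entry enzyme of flavonoid synthesis, fell from 76.6 ± 10.5 to 35.7 ± 4.18 RPKM, and PHR1, a photolyase that repairs UV damage in DNA, from 3.15 ± 1.05 to 1.12 ± 0.234 RPKM. Around PHR1, 27 of 100 neighbours were called. The call of PHR1 was lost without mutant replicate 1 (limma adjusted p = 0.0528) and without mutant replicate 3 (0.0525). GPX7, a chloroplast peroxidase, was at 1.26 ± 0.287 and 3.74 ± 1.70 RPKM (limma adjusted p = 0.0208), and it is named after its values were seen. Leaving out replicate 1 (0.0643) or 2 (0.0586) of Col-0 or replicate 1 of the mutant (0.0564) ended its call. APX2, an ascorbate peroxidase of high-light stress, was at or under 0.128 RPKM in every library and was not tested. Among genes of the lists that rose, 18 of 100 neighbours were called around GPX7, 15 around ZEP and 14 around HCF244. For FTSH8, SIG5, PGR5 and KEA3, which also rose, 13, 12, 7 and 6 of 100 were called. Among genes that fell, 5 of 100 were called around HY5 and 2 around CHS.

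**Figure D3:**
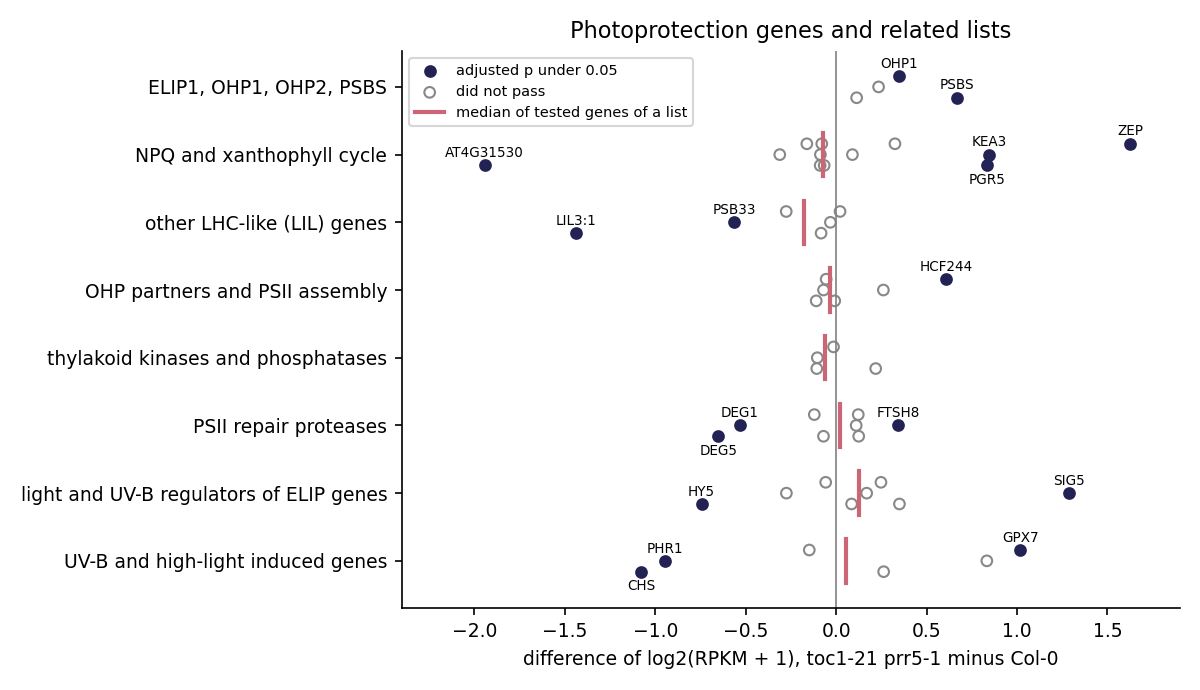
Difference of log2(RPKM + 1), mutant minus Col-0, for the 4 tested photoprotection genes (top) and the tested genes of 7 related lists, with filled points at limma adjusted p under 0.05 and red bars at each list's median. Called genes lie on both sides of 0 in 4 lists, and the list medians lie between -0.18 and 0.13.

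**Figure D4:**
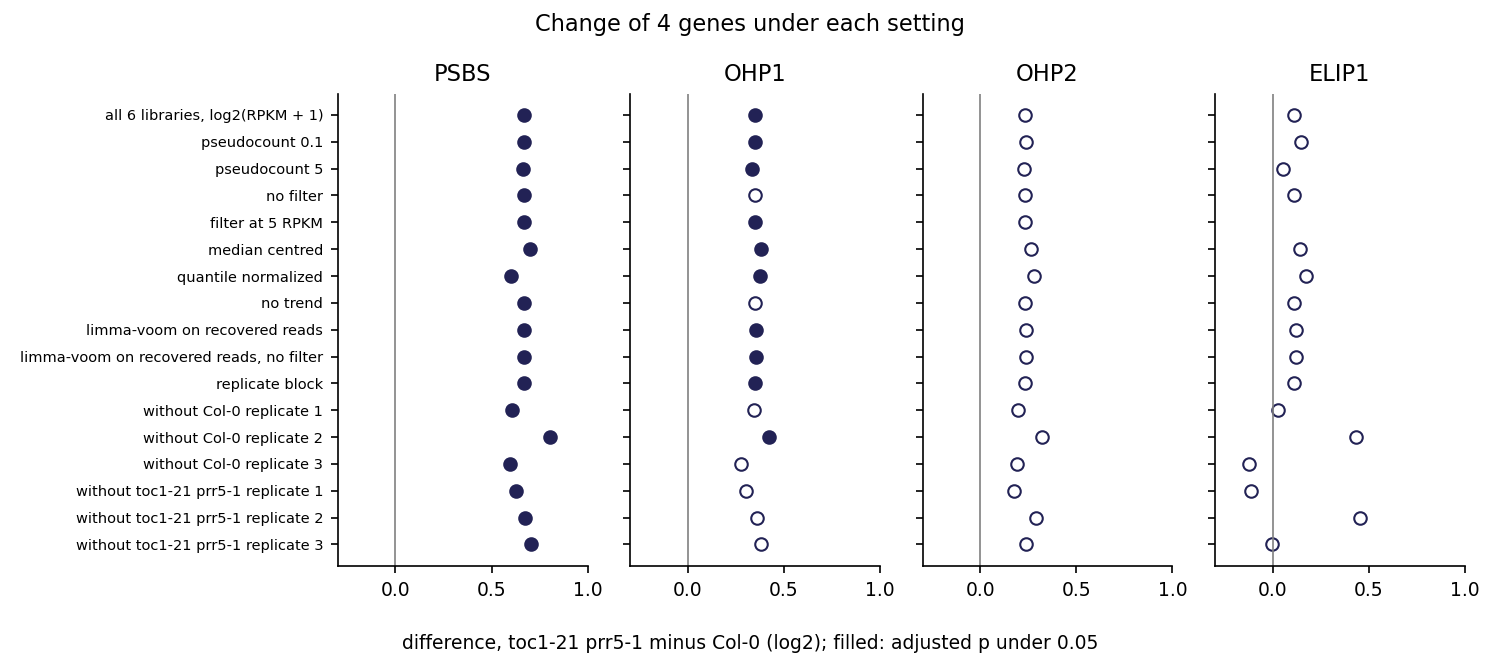
Difference between the genotypes on the log2 scale, mutant minus Col-0, for PSBS, OHP1, OHP2 and ELIP1 under each setting, with filled points at adjusted p under 0.05. PSBS is filled throughout, OHP1 changes between filled and open at nearly the same value, OHP2 is open throughout, and ELIP1 crosses 0.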

How the data were processed

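RNA from whole seedlings was sequenced in 6 libraries, 3 of Col-0 and 3 of toc1-21 prr5-1. Per the labels' protocols, Trizol RNA was treated with DNase I and made into directional libraries. The authors deposited RPKM values per gene, per the file headers. The submitters' processing notes list the tools TopHat2, TopHat and edgeR and the build TAIR10, and the sources used here give neither their roles nor their versions. Library depth was recovered as the number that makes the lowest values whole reads, which gave whole reads in all libraries (to within 0.001 reads plus rounding) for 25139 of 25139 genes above 0. Recovered reads summed to between 99.5% and 99.6% of depth. The length taken for a gene is the smallest that fits.

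The test was limma 3.58.1 (R 4.3.3) on log2(RPKM + 1), its prior variance following mean expression and genotype its sole term. The filter was at least 1 RPKM in at least 3 libraries. Fold changes on the log2(RPKM + 1) scale understate those of low genes. A trial on simulated reads gave every gene the same spread beyond counting error and changed no gene of the lowest levels. It does not show how the test works for genes as low as ELIP1 and ELIP2. Benjamini-Hochberg adjustment ran over all tested genes. Ratios of 2 genes were compared by exact permutation. Alternatives were pseudocounts of 0.1 and 5, other filters and scalings, no trend, limma-voom on recovered reads, a replicate block and leaving out each library. Named genes are the 5 photoprotection genes, TOC1 and PRR5, up to 2 called genes per list with the smallest adjusted p, and the 3 nearest profiles of each called gene, and further genes, named for contrast, were chosen after their values were seen. The genes and lists were chosen with earlier results of these data known. Symbols and sequences come from RefSeq TAIR10.1, which matched 97.7% of loci. Promoters were read from its genome, and protein sequences were not used here.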

Additional observations from a re-analysis of the deposited data

How the results depend on the processing

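PSBS kept its call under each alternative run, with log2 fold changes of 0.60 to 0.80. OHP1 lost its call with no filter (0.35, limma adjusted p = 0.0616) and without the trend (0.35, adjusted p = 0.0910). Leaving out 1 library gave 0.28 to 0.42, with 1 of 6 fits past the threshold. Fits without 1 library have fewer degrees of freedom, and the cause of any of these losses was not tested. OHP2 did not pass in any fit (0.18 to 0.32). ELIP1 did not pass in any fit and its value ran from -0.12 to 0.45 when 1 library was left out. ELIP2 was 1.02 with a pseudocount of 0.1, 0.13 with 5 and 1.16 with limma-voom and no filter, an alternative chosen after seeing the data, and 0.35 to 0.62 when 1 library was left out, as its values lie near the pseudocount. The difference of log2 ELIP2 to ELIP1 ratios ran from -0.083 (without mutant replicate 2, the only fit that turned its sign) to 0.58, with 0.87 at a pseudocount of 0.1 and 0.08 at 5, and that of the OHP ratios from -0.15 to -0.07 when 1 library was left out. The count of called genes was 2080, and 1340 to 2250 when 1 library was left out, with 1361 without replicate 1 of Col-0, and in the mutant 1340 without replicate 1 and 1361 without replicate 2.

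With the replicate block the count was 2114, PSBS had a limma adjusted p = 0.00439 and OHP1 one of 0.0420, and no call among the 4 tested genes changed. Libraries with the same number deviated from their group means with correlations of -0.03, 0.15 and 0.04, several were closer to another number than to their own, and the numbers were not taken as pairs. ELIP2 was below the filter and was fitted only with no filter. Its values under other settings are plain differences of mean log2 levels, without a test. No value was taken for it with a filter at 5 RPKM, quantile normalization, no trend or filtered limma-voom. ELIP1 could not be fitted with a filter at 5 RPKM, since it is below that filter.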
